A study of Mus musculus with 3 samples.

Results

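The transcripts of the BMP and TGF-beta pathways were examined in bulk RNA-Seq counts from E10.5 mouse maxillary processes, the paired swellings of the first pharyngeal arch that form the upper jaw. The 52 genes were chosen by name as ligands, receptors, Smads, antagonists, Id genes and latent TGF-beta binding proteins, and all 52 had a row among the 55401 genes of the count tables. The 3 libraries carry the same labels. The genotype was *Wnt1cre; Rosa26Dlx2/-* throughout. In these embryos Flag-tagged *Dlx2* is overexpressed from the Rosa26CAG-LSL-Dlx2-3xFlag allele once Cre, driven by *Wnt1*, has acted in neural crest cells. The libraries are called OE replicates 1, 2 and 3, in the order of their records. The driver acts in the neural crest, while the dissected process also holds epithelium, vessels and blood. No wild-type library was analysed here, and no difference between genotypes was tested. Separate RNA samples are stated, but not whether they came from separate embryos or from pools, so an SD measures the spread between these samples only.

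BMP and TGF-beta ligands are secreted dimers that bring together type I and type II serine/threonine kinase receptors. BMP-class ligands lead to phosphorylation of Smad1, Smad5 and Smad9, TGF-beta, activin and nodal class ligands to that of Smad2 and Smad3, and both sets enter the nucleus with the shared Smad4. Secreted antagonists hold ligands away from their receptors, the inhibitory Smads 6 and 7 close a feedback loop, and the Id genes are classical transcriptional targets of BMP signalling. In the face, these signals pass between epithelium and neural crest mesenchyme and take part in the outgrowth and fusion of the processes and in tooth and bone formation.

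Counts are given per 1000000 counts on genes (CPM) after TMM scaling, which compares 1 gene between libraries. Levels of different genes are compared as CPM per kb of exonic length, because a longer transcript gives more fragments. The libraries held 36544554, 35351031 and 40057435 counts on genes, and 3 counts, the limit used for a gene at 0, correspond to 0.0775, 0.0837 and 0.0804 CPM. Such limits cover counting error only. *Dlx2* was at 235, 199.5 and 185 CPM.

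The libraries differed in the tissue markers they held, and these sums are given here because several pathway genes followed the same order of libraries. Facial mesenchyme markers summed to 1665, 1745 and 1846 CPM in OE replicates 1, 2 and 3, and 8 of 8 genes reached at least 1 CPM in each library, so the labelled tissue had its defining markers. Within that sum only 3 of the 8 genes were highest in replicate 3 and lowest in replicate 1. *Prrx1*, the most abundant, ran the other way, at 627, 578 and 423 CPM. Surface epithelium markers summed to 412, 257 and 247 CPM (7 of 8 genes), and 6 of the 8 were highest in replicate 1, but *Krt18*, the most abundant, was at 86.4, 65.0 and 109 CPM. Neuron markers, at 272, 24.1 and 36.2 CPM (4 of 9 genes), were also highest in replicate 1, whereas eye and forebrain markers, at 25.0, 157 and 148 CPM (5 of 7 genes), were lowest there. Pigment cell markers reached 0.672, 8.32 and 93.0 CPM, none of 6 reaching 1 CPM in each library and 2 being at 0 in replicate 1. Erythroid markers summed to 2101, 3923 and 4936 CPM (5 of 5 genes) and were lowest in replicate 1. No other marker was at 0 in any library. Endothelium summed to 268, 292 and 233 CPM (6 of 6 genes), macrophage to 26.1, 30.0 and 34.0 CPM (5 of 6 genes) and muscle to 30.1, 24.9 and 65.4 CPM (1 of 5 genes). *Xist*, transcribed from the inactive X chromosome, was at 669, 0.307 and 0.563 CPM and 4 Y-linked genes together at 0, 145 and 110.1 CPM. By these genes replicate 1 was female and replicates 2 and 3 male, which the labels do not state. Any difference of replicate 1 from the other libraries thus goes along with sex, and the part of sex was not tested. In bulk RNA, fewer cells of a type and less RNA per cell cannot be told apart. No library was a copy of another, since every pair differed by more than sampling noise, with a mean chi-square per degree of freedom of 70.9 to 346.

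At least 1 CPM in each library was reached by 37 of the 52 pathway genes, which is 71.2%, against 54.6% of 21897 protein-coding genes and 23.3% of all 55401 genes. A mean count of at least 10 was reached by 46, and the other 6 were *Bmp3*, *Nodal*, *Inhba*, *Acvr1c*, *Lefty1* and *Lefty2*. Transcripts of the Id genes, *Id4* excepted, stood above the rest, and the 4 genes had a median level of 104 CPM per kb. The median was 10.1 for the 8 Smads, 3.69 for the 11 receptors and coreceptors, 1.77 for the 4 Ltbp genes, 0.683 for the 9 antagonists and 0.457 for the 16 ligands. With the longest transcript as length, the median of the Ltbp genes was 2.83. Within each role the range was wide, since a few members carried most of the level. Ordered by mean level per kb, 46 of the 51 neighbouring pairs had ranges over the 3 libraries that overlapped, so most neighbours were not separated by range. Of these pairs, *Smad4* over *Smad5*, *Bambi* over *Bmp7*, *Acvr1b* over *Smad2* and *Smad2* over *Smad1* nevertheless kept their order in every library. So did *Smad7* over *Tgfb1*, *Bmpr2* over *Tgfbr2* and *Bmp2* over *Bmp5*. The 5 steps without overlap lay between *Id1* and *Id2*, *Id2* and *Smad4*, *Gdf11* and *Smad6*, *Id4* and *Smad9*, and *Inhbb* and *Ltbp2*. With 3 libraries, an exact sign-flip permutation test of a difference between 2 genes could not give a two-sided p under 0.25, so orders are described without a test.

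**Figure D1:**
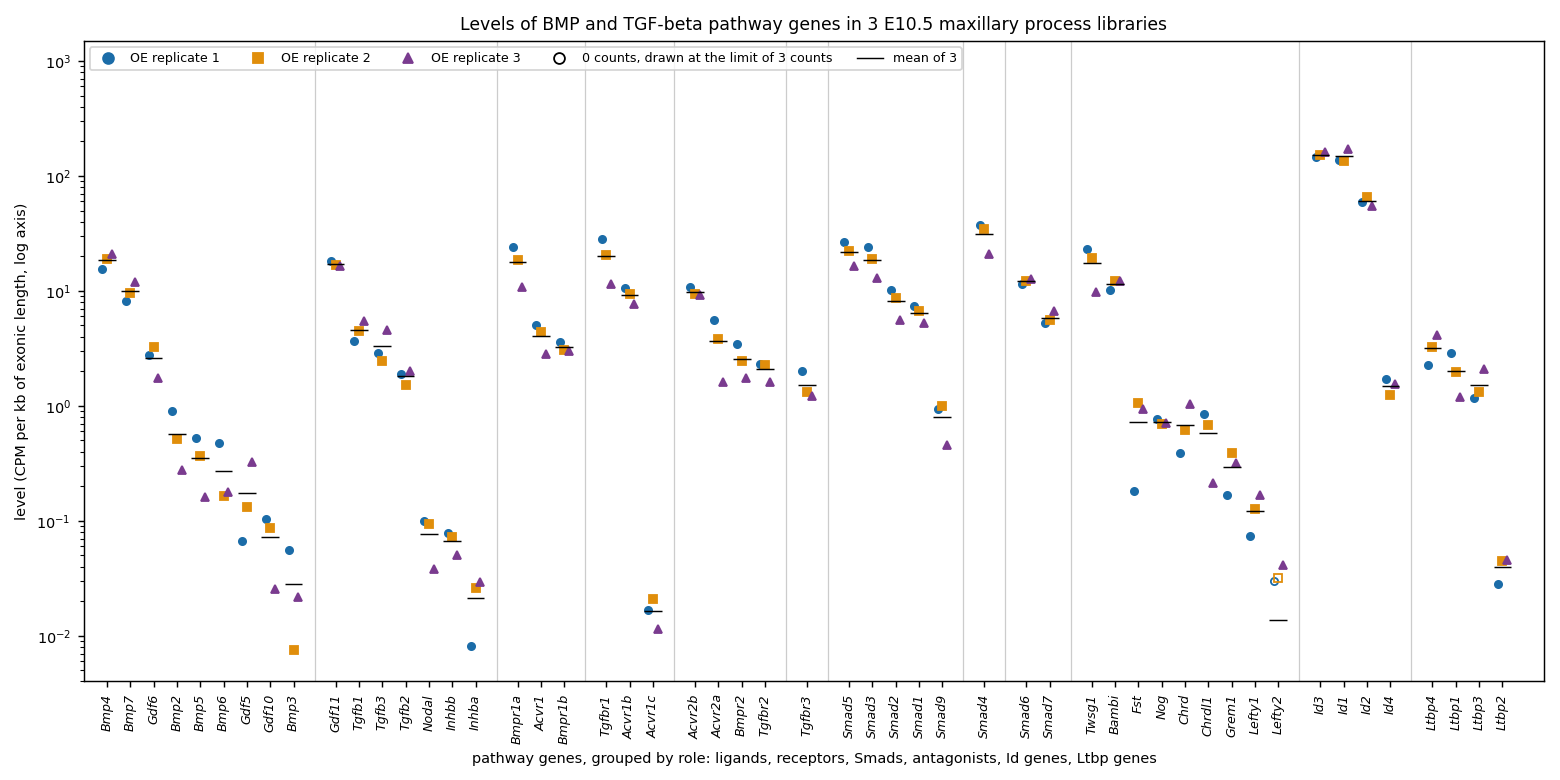
Level of each pathway gene in CPM per kb of exonic length (log axis) in OE replicates 1, 2 and 3 (circles, squares and triangles), grouped by role, with the mean as a bar. *Id3*, *Id1* and *Id2* lie above all other genes in every library, and open symbols mark the 0 counts of *Lefty2*, drawn at the limit of 3 counts.

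Id proteins are helix-loop-helix factors without a DNA-binding region that keep partner bHLH factors from DNA. *Id3* (ENSMUSG00000007872, chromosome 4, 136143497 to 136145755, plus strand, mm10) was at 261, 273 and 289.5 CPM in OE replicates 1, 2 and 3, and *Id1* (ENSMUSG00000042745, chromosome 2, 152736251 to 152737410, plus strand) at 159, 157 and 198 CPM. Per kb, *Id3* was at 153 ± 7.99 and *Id1* at 148 ± 19.9 CPM per kb (mean ± SD, n = 3), ranks 276 and 284 among the 17115 genes whose mean count was 10 or higher. These levels were not separated, because *Id3* was above *Id1* in 2 of 3 libraries and the ranges overlapped. *Id2*, at 146, 159 and 134 CPM and 59.9 ± 5.14 CPM per kb, stood below *Id1* by 2.08 to 3.12-fold in every library. *Id4*, at 6.56, 4.77 and 5.98 CPM, was far below its paralogs, with 85.5 to 123-fold less than *Id3* per kb. *Id3* thus took 42.3% ± 0.719 of the summed Id level, *Id1* 40.7% ± 2.92, *Id2* 16.6% ± 2.23 and *Id4* 0.414% ± 0.0735. When the longest transcript set the length, the share of *Id3* was 49.0%, and *Id3*, at 204, 214 and 227 CPM per kb, was above *Id1*, at 137, 136 and 171, in 3 of 3 libraries without overlap.

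The spread of the Id genes between libraries was small. The highest library exceeded the lowest by 1.11-fold for *Id3*, 1.19-fold for *Id2*, 1.26-fold for *Id1* and 1.37-fold for *Id4*, beside a median of 1.67-fold over those 17115 genes. None of the 4 reached 2-fold, a span that 33.4% of all genes reached. The summed level of the 4 genes was 345, 354 and 389 CPM per kb in replicates 1, 2 and 3. With the trend on gene length removed, the spans were 1.21-fold for *Id3*, 1.37-fold for *Id2*, 1.22-fold for *Id1* and 1.36-fold for *Id4*. The median over all genes was then 1.54-fold. Log2 CPM in replicate 3 was then below the mean of the other libraries for *Id1*, *Id2* and *Id3* (-0.19, -0.42 and -0.25). For *Id4* it was 0.09 above.

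*Smad6* and *Smad7* encode the inhibitory Smads, Smad6 acting mainly on BMP receptors and Smad7 on both branches. *Smad6* (ENSMUSG00000036867, chromosome 9, 63953076 to 64022059, minus strand) was at 37.1, 39.0 and 40.6 CPM, a span of 1.09-fold, and its 3 counts (1437, 1396 and 1513) did not pass the test against counting noise. *Smad7* was at 24.0, 25.0 and 30.2 CPM, a span of 1.26-fold. Per kb *Smad6* exceeded *Smad7* by 1.90 to 2.20-fold, with no overlap between their ranges. In both genes, replicate 3 was the highest and replicate 1 the lowest library, an order seen in 34.1% of all genes, and with no scaling of the library totals neither gene kept it.

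The RefSeq promoter windows of *Smad6*, *Id2*, *Id3* and *Id4* (GRCm38.p6, 250 bases before to 50 after the RefSeq start) are shown because *Id2* to *Id4* are the Id genes that have a window and *Smad6* holds the palindrome searched for. Capitals mark GTCTAGAC, the palindromic Smad-binding sequence, and GGCGCC, the GC-rich sequence bound by BMP Smads, each searched on both strands, where they read the same.
*Smad6* (chr9:64022010-64022309, minus strand): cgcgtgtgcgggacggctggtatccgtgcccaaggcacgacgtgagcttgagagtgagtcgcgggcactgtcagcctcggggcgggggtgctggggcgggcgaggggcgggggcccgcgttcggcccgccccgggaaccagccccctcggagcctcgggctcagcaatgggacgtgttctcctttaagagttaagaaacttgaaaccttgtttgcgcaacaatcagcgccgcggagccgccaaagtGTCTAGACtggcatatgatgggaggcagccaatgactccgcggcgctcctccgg
*Id2* (chr12:25096043-25096342, minus strand): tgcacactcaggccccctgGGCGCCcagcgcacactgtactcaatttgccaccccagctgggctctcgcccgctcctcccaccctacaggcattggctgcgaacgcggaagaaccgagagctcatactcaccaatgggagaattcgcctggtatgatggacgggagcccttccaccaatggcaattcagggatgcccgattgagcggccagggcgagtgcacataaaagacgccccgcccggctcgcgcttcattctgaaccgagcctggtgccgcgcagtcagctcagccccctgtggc
*Id3* (chr4:136143572-136143871, plus strand): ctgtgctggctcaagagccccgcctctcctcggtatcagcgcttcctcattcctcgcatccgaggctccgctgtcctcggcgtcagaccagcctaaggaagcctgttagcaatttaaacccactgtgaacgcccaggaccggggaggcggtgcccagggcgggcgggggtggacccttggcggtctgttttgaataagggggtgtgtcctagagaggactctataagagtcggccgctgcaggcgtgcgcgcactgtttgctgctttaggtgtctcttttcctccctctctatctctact
*Id4* (chr13:48260866-48261165, plus strand): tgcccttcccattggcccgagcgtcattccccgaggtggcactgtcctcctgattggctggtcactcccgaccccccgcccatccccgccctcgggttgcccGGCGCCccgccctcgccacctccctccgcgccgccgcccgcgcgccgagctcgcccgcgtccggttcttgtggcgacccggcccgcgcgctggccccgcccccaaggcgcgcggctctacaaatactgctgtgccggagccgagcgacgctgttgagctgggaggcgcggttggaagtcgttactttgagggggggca
In *Smad6*, GTCTAGAC begins 4 bases before the start, and 0.213% of 32851 windows over all genes hold it. Of the 35 pathway genes with a window, *Smad6* alone held this sequence. GGCGCC was found 231 bases before the start of *Id2* and 148 before that of *Id4*, and not in the windows of *Id3* and *Smad6*. It was held by 11.9% of all windows and by 14 of the 44 windows of pathway genes, which belong to 12 of the 35 genes, *Bmpr1a*, *Bmpr2*, *Tgfbr1*, *Smad5* and *Smad9* among them. A composite of GGCGCC and, 5 bases on, GTCT was searched too, and was in 0 of the 44 windows of pathway genes and in 0.0731% of all windows. TATAAA was in 4 of the 44 windows and in 13.6% of all windows. A match is a run of letters and not a shown binding site, and these data hold no measure of binding. The 17 genes without a window include *Id1*, *Smad4*, *Smad7*, *Bmp2* and *Bmp7*.

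Among BMP-class ligands, 2 genes carried most of the level. *Bmp4* (ENSMUSG00000021835, chromosome 14, 46383520 to 46390669, minus strand), a ligand of facial epithelium and mesenchyme, was at 34.9, 43.0 and 46.8 CPM and 18.5 ± 2.71 CPM per kb. *Bmp7* (ENSMUSG00000008999, chromosome 2, 172868012 to 172940321, minus strand) was at 32.8, 38.5 and 47.9 CPM and 9.88 ± 1.89 CPM per kb. Both were lowest in replicate 1 and highest in replicate 3, with spans of 1.34 and 1.46-fold, an order that 34.1% of all genes had. With the length trend removed, *Bmp4* was highest in replicate 2, with a span of 1.18-fold. Within a library *Bmp4* exceeded *Bmp7* by 1.75 to 2.00-fold per kb, and their ranges did not overlap. *Bmp4* made up 54.2%, 57.6% and 58.7% of the summed level of the 9 BMP-class genes in replicates 1, 2 and 3. This was 56.8% ± 2.33 on average (SD, n = 3), against 30.3% ± 2.83 for *Bmp7* and 8.16% ± 2.82 for *Gdf6*. Without division by length, the share of *Bmp4* was 43.2%.

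*Gdf6*, a factor of joint and skull development, was at 9.87, 11.5 and 6.14 CPM and lowest in replicate 3. *Bmp2*, close in protein sequence to *Bmp4*, was at 3.20, 1.81 and 0.992 CPM and lay 17.2 to 74.6-fold under *Bmp4* per kb. *Bmp5* was at 2.12, 1.48 and 0.643 CPM and *Bmp6*, of the same subfamily as *Bmp7*, at 1.86, 0.642 and 0.697 CPM. These 3 low ligands were highest in replicate 1, as 39.8% of all genes were. The summed epithelium and neuron markers were highest there too, *Krt18* excepted among the epithelium markers named above, and the part of those tissues in the difference was not tested. Of the exonic bases of *Bmp5*, 46.7% are shared with a gene on the other strand, so its reads are uncertain if strand was not used in counting. *Gdf5*, a joint factor, went the other way, at 0.155, 0.307 and 0.751 CPM, and shares 40.3% of its bases in the same manner. *Gdf10* was at 0.542, 0.446 and 0.134 CPM, also highest in replicate 1. *Bmp3*, an atypical member that opposes other BMPs, had 16, 2 and 6 counts. All of these, *Gdf6* apart, were near or under 3 CPM, so their folds rest on few reads.

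On the TGF-beta, activin and nodal side, *Gdf11* led. It encodes a ligand of activin-type receptors known for patterning along the body axis, and was at 74.6, 68.2 and 66.6 CPM and 17.2 ± 1.05 CPM per kb, a span of 1.12-fold. Its share of the class was 63.8% ± 5.66. The 3 TGF-betas followed. *Tgfb1* was at 18.6, 22.5 and 27.8 CPM, *Tgfb3*, needed for fusion of the palate, at 9.74, 8.23 and 15.4 CPM, and *Tgfb2* at 11.0, 8.87 and 11.6 CPM. *Tgfb1* took 47.4% ± 4.89 of the level of these 3, *Tgfb3* 33.5% ± 4.45 and *Tgfb2* 19.1% ± 3.01. The ranges of *Tgfb1* and *Tgfb3* overlapped, though *Tgfb1* was the higher in every library, by 1.21 to 1.83-fold per kb. Both lay above *Tgfb2*, by 1.95 to 2.91-fold and 1.51 to 2.27-fold. With the longest transcript as length, *Tgfb1* took 62.7% ± 4.50 and lay above *Tgfb3* without overlap, at 7.25, 8.74 and 10.8 against 2.88, 2.43 and 4.56 CPM per kb. All 3 were highest in replicate 3, as 44.2% of all genes were, but with library totals alone *Tgfb2* was highest in replicate 1, at 11.7 CPM against 10.8 in replicate 3. Antisense exons cover 12.4% of *Tgfb3*.

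Transcripts of the activin subunits and of *Nodal* were scarce. *Inhba*, an activin subunit of tooth and whisker development, had 2, 6 and 7 counts in the 3 libraries, and *Inhbb* had 13, 11 and 8. *Nodal*, which acts in the early embryo, had 8, 7 and 3 counts. Its inhibitors were as low, *Lefty1* with 5, 8 and 11 counts and *Lefty2* with 0 in replicates 1 and 2, which allows up to 0.0775 and 0.0837 CPM, and 4 in replicate 3. The median library had *Gdf11* at 186-fold over *Nodal* per kb, so the class was made up almost wholly of *Gdf11* and the TGF-betas.

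**Figure D2:**
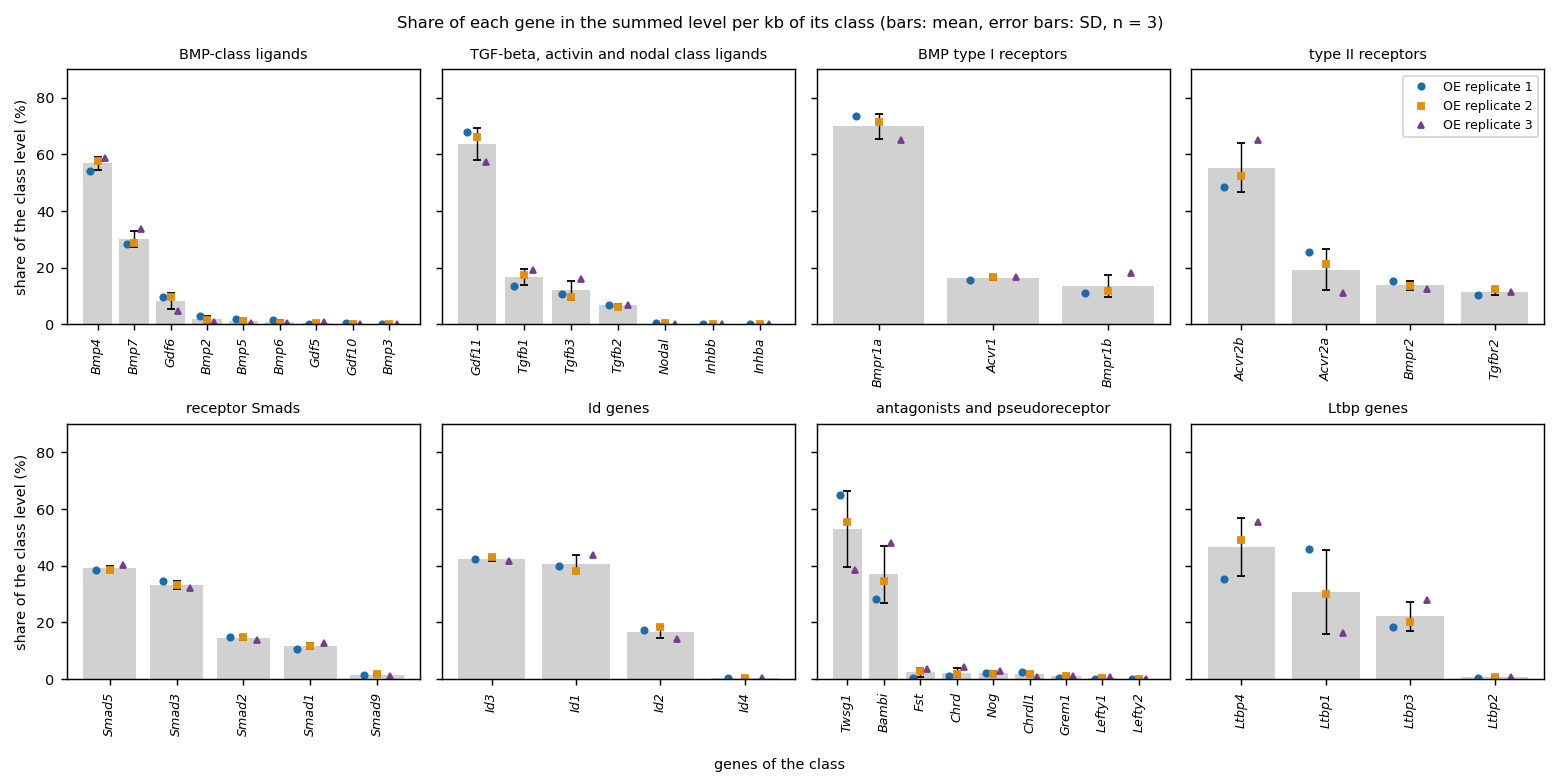
Share of each gene in the summed CPM per kb of its class, in percent, as the mean (bars) with its SD (error bars, n = 3) and the values of the 3 OE replicates (symbols). *Bmp4*, *Gdf11*, *Bmpr1a* and *Acvr2b* took more than any other gene of their class in every library, while *Twsg1* and *Bambi*, and *Ltbp1* and *Ltbp4*, changed places between libraries at these lengths.

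Receptors were led by *Tgfbr1* and *Bmpr1a*, a type I receptor of each branch. *Tgfbr1* (ENSMUSG00000007613, chromosome 4, 47353222 to 47414931, plus strand) was at 186, 134 and 75.1 CPM in OE replicates 1, 2 and 3, or 20.1 ± 8.52 CPM per kb. *Bmpr1a* (ENSMUSG00000021796, chromosome 14, 34410734 to 34503341, minus strand) was at 153, 118 and 68.3 CPM, or 17.8 ± 6.70 CPM per kb. The ranges of these genes overlapped, though within each library *Tgfbr1* was the higher. It was at 28.5, 20.4 and 11.5 CPM per kb, against 24.1, 18.5 and 10.8 for *Bmpr1a*. Among BMP type I receptors, *Bmpr1a* took 69.9% ± 4.48 of the level, *Acvr1* 16.4% ± 0.772 and *Bmpr1b* 13.7% ± 3.94. *Acvr1* was at 24.6, 21.0 and 13.5 CPM and *Bmpr1b*, a receptor of cartilage condensations, at 21.4, 18.3 and 18.0 CPM. *Bmpr1a* exceeded *Bmpr1b* by 3.57 to 6.70-fold per kb, and *Acvr1* and *Bmpr1b* were not separated, although *Acvr1* was the higher without overlap with the longest transcript as length. The activin type I receptor *Acvr1b* was at 46.7, 41.9 and 34.3 CPM, and its relative *Acvr1c* had only 6, 7 and 4 counts.

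Of the type II receptors, *Acvr2b* was highest per kb, at 42.3, 37.1 and 36.4 CPM and 9.83 ± 0.814 CPM per kb. *Acvr2a*, which like *Acvr2b* serves activins and BMPs, was at 32.0, 21.8 and 9.14 CPM. Its span of 3.49-fold was the widest of the receptors, and 2.97-fold remained after the trend on gene length was removed. *Bmpr2*, the BMP type II receptor, whose transcripts together cover 17983 exonic bases, was at 61.5, 44.1 and 31.7 CPM and *Tgfbr2* at 19.1, 18.6 and 13.2 CPM. *Acvr2b* took 55.4% ± 8.59 of the type II level and *Acvr2a* 19.3% ± 7.27, a share that differed between libraries at 25.4%, 21.3% and 11.3%. *Acvr2a*, *Bmpr2* and *Tgfbr2* overlapped in range. *Bmpr2* was nevertheless above *Tgfbr2* in every library, by 1.08 to 1.46-fold per kb, and without overlap with the longest transcript as length. The coreceptor *Tgfbr3* (betaglycan), which presents TGF-beta2 to the receptors, was at 13.1, 8.68 and 8.04 CPM.

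Leaving out the scarce *Acvr1c*, the 10 receptors were all highest in replicate 1 and lowest in replicate 3, an order that 33.9% of all genes had. This count was made after the values were seen. With upper quartile scaling it was 8 of 10, and after a trend on exonic length was removed 6 of 10, where 29.3% of all genes had the order. The summed level of all receptors was 96.0, 75.2 and 51.3 CPM per kb. The summed epithelium markers had the same order of libraries (412, 257 and 247 CPM), shown by 5 of the 8 markers and not by *Krt18*, the most abundant. *Dlx2* (235, 199.5 and 185 CPM) and the mesenchyme marker *Prrx1* (627, 578 and 423 CPM) had this order too. The summed mesenchyme markers had the opposite order, shown by 3 of the 8. The part of any of these in the receptor values was not tested.

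Smad transcripts were more even than ligands. *Smad4*, the partner of every receptor Smad, was at 139, 128 and 78.3 CPM and, at 31.0 ± 8.71 CPM per kb, followed the 3 leading Id genes. *Smad5* (ENSMUSG00000021540, chromosome 13, 56703010 to 56742377, plus strand) was at 197, 165 and 121 CPM, *Smad3* at 133, 106 and 72.2 CPM, *Smad2* at 89.7, 75.8 and 49.1 CPM and *Smad1* at 46.6, 42.1 and 32.7 CPM. *Smad9* was low, at 5.04, 5.39 and 2.47 CPM. Within the BMP branch, *Smad5* exceeded *Smad1* by 3.13 to 3.56-fold and *Smad9* by 22.2 to 35.6-fold per kb. Within the TGF-beta branch, *Smad3* exceeded *Smad2* by 2.22 to 2.34-fold.

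The balance between the branches held close to even. *Smad1*, *Smad5* and *Smad9* together made up 50.5%, 51.9% and 54.2% of the receptor Smad level in OE replicates 1, 2 and 3, or 52.2% ± 1.87 (SD, n = 3). *Smad2* and *Smad3* made up the other 47.8% ± 1.87. *Smad1* and *Smad5* alone held 50.8% ± 2.03, or 54.3% with the length of the longest transcript. The single genes nevertheless moved between libraries. *Smad1*, *Smad2*, *Smad3*, *Smad4* and *Smad5* had the order of the receptors, highest in replicate 1 and lowest in replicate 3, with spans from 1.42-fold for *Smad1* to 1.84-fold for *Smad3*. With the receptors, 15 of 16 genes had that order, *Smad9* being the exception, against 33.9% of all genes, a count also made after the values were seen. It was 13 of 16 with upper quartile scaling and 11 of 16 after the length trend was removed, against 29.3% of all genes.

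**Figure D3:**
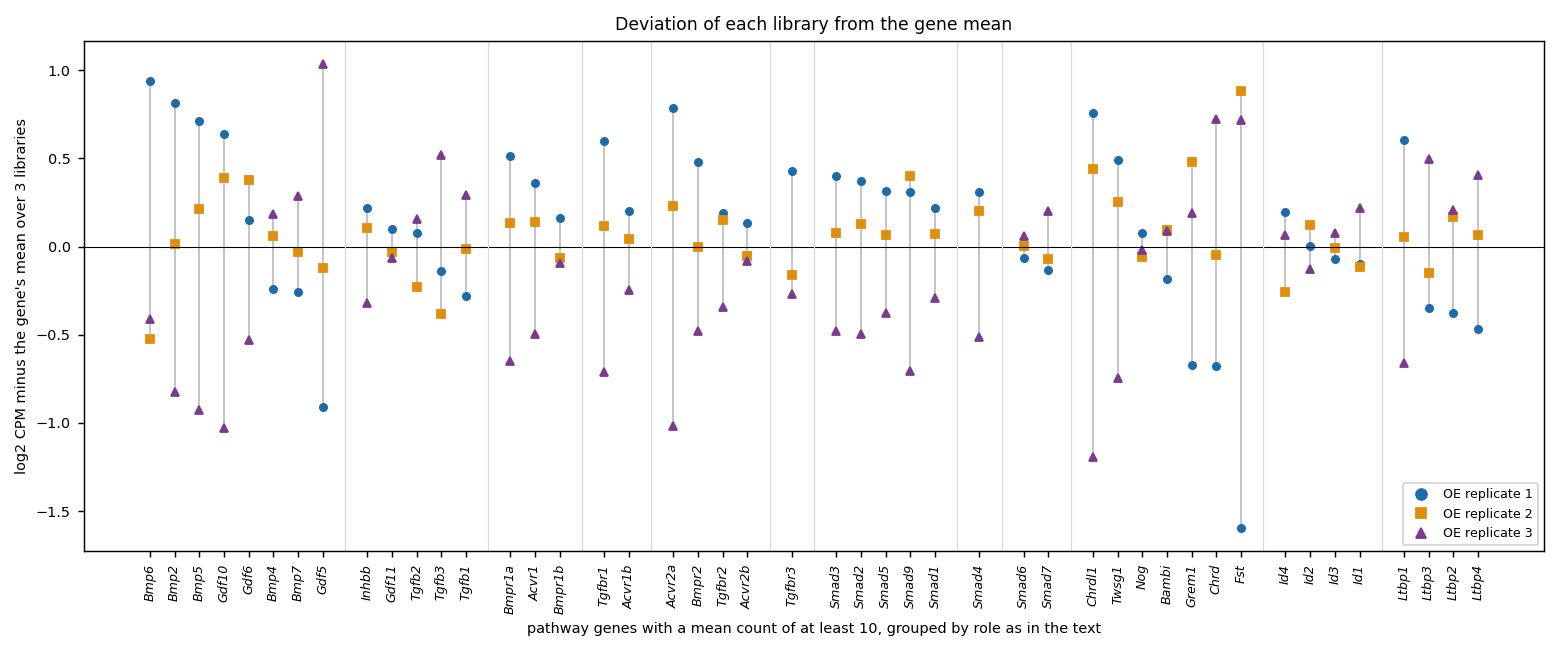
Log2 CPM of each OE library minus the mean of the gene over the 3 libraries, for the 46 pathway genes that passed the count filter, in blocks by role in the order ligands, receptors, Smads, antagonists, Id genes and Ltbp genes. Receptors and receptor Smads have replicate 1 on top and replicate 3 at the bottom, *Smad9* excepted, while *Smad6*, *Nog* and the Id genes stay close to 0 and *Fst* is far below in replicate 1.

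Of the 7 antagonists that passed the count filter, 5 spanned 2-fold or more between libraries, against 33.4% of all genes, and 5 with the length trend removed, against 26.4%. *Nog* and *Bambi* did not, at 1.10 and 1.21-fold. *Twsg1*, which binds BMPs together with chordin, was at 119, 101 and 50.3 CPM, and *Bambi*, a pseudoreceptor without a kinase domain, at 51.1, 61.9 and 61.7 CPM. Per kb they stood at 17.4 ± 6.88 and 11.5 ± 1.21 CPM per kb, *Twsg1* being the higher in 2 of 3 libraries. With the longest transcript as length it was the higher in 3 of 3, by little in replicate 3 (12.3 against 12.2 CPM per kb). Together they made up most of the class, *Twsg1* with 64.8%, 55.3% and 38.5% and *Bambi* with 28.4%, 34.6% and 48.0% in replicates 1, 2 and 3. The BMP antagonists *Nog*, *Chrd* and *Grem1* were low. *Nog* (noggin) was at 1.29, 1.17 and 1.21 CPM, its counts of 50, 42 and 45 not passing the test against counting noise. *Chrd* (chordin) was at 2.45, 3.82 and 6.54 CPM, highest in replicate 3, and *Grem1* (gremlin) at 0.697, 1.62 and 1.31 CPM.

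*Fst* and *Chrdl1* were far apart between libraries. *Fst* (ENSMUSG00000021765, chromosome 13, 114452290 to 114458951, minus strand), encoding follistatin, which binds activins and some BMPs, was at 0.827, 4.86 and 4.32 CPM, lower in replicate 1 than in the other libraries. Its span of 5.58-fold was the widest of the 46 genes, and was 5.70-fold after the length trend was removed. Eye and forebrain markers were likewise lowest in replicate 1 (25.0, 157 and 148 CPM, 5 of 7 genes reaching 1 CPM in each library and none at 0), and their part in *Fst* was not tested. *Chrdl1* (chordin-like 1) was at 5.76, 4.60 and 1.45 CPM, highest in replicate 1 and lowest in replicate 3, with a span of 3.87-fold.

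The Ltbp proteins bind latent TGF-beta in the matrix, *Ltbp2* excepted. *Ltbp4* was at 14.5, 21.0 and 26.6 CPM, *Ltbp1* at 30.9, 21.1 and 12.8 CPM, *Ltbp3* at 10.51, 12.1 and 18.9 CPM and *Ltbp2* at 0.232, 0.363 and 0.375 CPM. *Ltbp1* was highest in replicate 1 and lowest in replicate 3, while the other 3 genes had the opposite order, as 34.1% of all genes did (33.8% with the length trend removed). For *Ltbp2* this rests on 9, 13 and 14 counts, which did not pass the test against counting noise, and with library totals alone 2 of the 4 genes had it. The share of *Ltbp1* was therefore 45.7%, 29.9% and 16.1% in replicates 1, 2 and 3 and that of *Ltbp4* 35.5%, 49.2% and 55.3%, and which of them led depended on the library. All 4 are long genes, of 6463 to 10691 exonic bases.

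In 42 of the 46 genes tested, or 91.3%, the 3 counts differed by more than counting noise (chi-square test on the scaled library sizes, Benjamini-Hochberg adjusted over all genes at 0.05), against 81.5% of all 17115 genes. The 4 that did not pass were *Inhbb*, *Ltbp2*, *Nog* and *Smad6*. This test compares the libraries and not conditions, and its power grows with the count. The pathway genes had a median of 20.8 CPM against 14.0 over all genes. A span of at least 2-fold was found in 15 of 46 genes, or 32.6%, close to the 33.4% of all genes. These were the ligands *Bmp2*, *Bmp5*, *Bmp6*, *Gdf5* and *Gdf10*, the receptors *Bmpr1a*, *Tgfbr1* and *Acvr2a*, *Smad9*, the modulators *Chrd*, *Chrdl1*, *Grem1*, *Fst* and *Twsg1*, and *Ltbp1*. The number was 7 of 45 tested without replicate 1, 15 of 47 without replicate 2 and 3 of 45 without replicate 3, where 17.2%, 30.0% and 6.28% of all genes spanned 2-fold. The highest library was replicate 1 for 26 of the 46 genes, replicate 2 for 6 and replicate 3 for 14, against 39.8%, 16.1% and 44.2% of all genes. The median span was 1.78-fold for the pathway genes and 1.67-fold for all genes.

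Gene length moved with the difference between libraries. Over all genes, those of up to 3000 exonic bases had a median log2 CPM in replicate 3 that was 0.48 above the mean of the other libraries, and those of over 6000 bases had -0.46. The pathway genes showed 0.20 for 6 genes of up to 3000 bases and -0.54 for 14 of over 6000 bases. Across the 46 genes, which share the 3 libraries, Pearson's r between log2 length and this difference was -0.29, as a description, and it was -0.38 over all genes. In replicate 1 the difference was -0.33 and 0.33 for short and long genes among all genes, and -0.13 and 0.51 for those of the pathways. With the trend removed by a smooth curve fitted over all genes, 14 of 46 genes still spanned 2-fold, 11 of them among the 15 above, against 26.4% of all genes. *Bmpr1a*, *Tgfbr1*, *Smad9* and *Ltbp1* then fell below 2-fold, at 1.81, 1.98, 1.97 and 1.63-fold, and *Ltbp2*, *Ltbp3* and *Ltbp4* passed it, at 2.06, 2.54 and 2.28-fold.

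**Figure D4:**
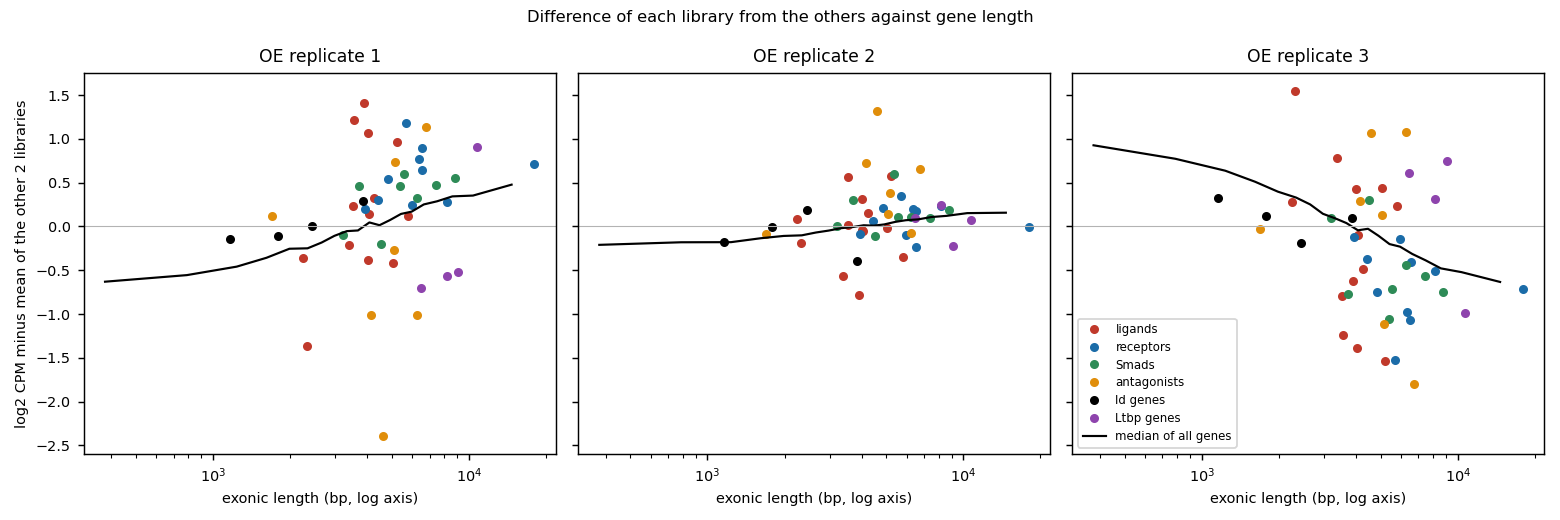
Log2 CPM of each OE replicate minus the mean of the other 2 libraries against exonic length in bp (log axis), for the 46 pathway genes (points, coloured by role) and as the median of all genes in bins of length (line). In replicate 3 the line falls from short to long genes, where *Id1*, *Id3* and *Id2* lie below 3000 bp and 5 of the 10 receptors above 6000 bp.

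A further 60 genes of the same pathways were listed, and 35 reached 1 CPM in each library. The 5 with the highest level per kb were *Msx1* (74.1 ± 14.6 CPM per kb) and *Msx2* (21.5 ± 0.587), homeobox genes that respond to BMP in facial mesenchyme, *Fstl1* (38.7 ± 7.07), *Nbl1* (37.9 ± 23.8), a secreted BMP antagonist of the DAN family, and *Tgif2* (22.0 ± 8.67), a corepressor of Smads. *Msx2*, at 68.8, 70.6 and 72.6 CPM, had a span of 1.06-fold. *Nbl1*, at 39.4, 60.2 and 132 CPM, was highest in replicate 3. Per kb it lay at 19.4, 29.6 and 64.8 CPM per kb, below *Twsg1* in replicate 1 and above it in replicate 3 (23.0, 19.5 and 9.77 CPM per kb). *Tgif2* shares 61.6% of its exonic bases with a gene on the other strand, so its counts are uncertain.
Of the 46 listed genes that passed the count filter, 41 differed by more than counting noise and 19 spanned at least 2-fold, or 16 with the length trend removed, against 81.5%, 33.4% and 26.4% of all genes. *Smurf2*, a ubiquitin ligase for Smads and their receptors, was at 82.2, 69.2 and 40.0 CPM, and the Smad anchor *Zfyve16* at 27.5, 20.4 and 11.5 CPM. *Sostdc1*, an antagonist of BMP and WNT in teeth, was at 20.0, 13.3 and 7.08 CPM, and *Crim1*, a membrane protein that binds BMPs, at 15.4, 12.8 and 6.38 CPM. Both were highest in replicate 1 and lowest in replicate 3, as 33.9% of all genes were. *Kcp*, a chordin-like protein, at 22.8, 36.7 and 75.9 CPM, *Pmepa1*, a TGF-beta target, at 9.45, 13.1 and 21.3 CPM, and *Inha*, the inhibin alpha subunit, at 4.88, 5.05 and 10.7 CPM, were highest in replicate 3. *Itgav*, an integrin that helps to release latent TGF-beta, at 58.4, 49.5 and 25.9 CPM, and *Rgmb*, a BMP coreceptor, at 17.8, 8.85 and 17.4 CPM, were lowest in replicate 3 and in replicate 2, respectively. In addition to *Nbl1*, the genes *Amh*, *Amhr2*, *Mstn*, *Gdf9*, *Bmp8b*, *Sost*, *Tll1* and *Vwc2* spanned from 2.07-fold for *Gdf9* to 6.30-fold for *Tll1*, and each had a mean of at most 2.08 ± 1.47 CPM. At this depth such genes have few reads. *Gdf1*, *Tdgf1*, *Cer1* and *Tll2* had 0 counts in every library, which for the last 3 allows up to 0.0775, 0.0837 and 0.0804 CPM. All exonic bases of *Gdf1* are shared with *Cers1* on the same strand, so a count of 0 does not measure its level.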

How the data were processed

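RNA-Seq libraries were made by the authors from poly-A RNA of 3 samples, and sequenced as 150 bp paired-end reads. The submitters' processing notes name the build mm10 and the tools FastQC, STAR 2.7.3a and HTSeq 0.12.4. The authors deposited raw counts per gene, as whole numbers without normalization. The annotation release and the strand setting of the counting are not given in the sources used here. Rows that name no gene were left out and held 14.2%, 15.7% and 16.4% of the counted reads, reads on several genes alone being 6.11%, 6.10% and 6.96%.

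Identifiers were matched to GENCODE M21 (GRCm38) without their version, and 260 of 55401 had no match. Symbols, coordinates, exonic lengths and shared exonic bases came from it. CPM used TMM factors from edgeR 4.0.16 (1.06, 1.01 and 0.931). Logarithms used a prior count of 2, and filters a mean count of at least 10. DESeq2 1.42.0 gave alternative factors. The length trend was a lowess curve (fraction 0.3) per library from statsmodels 0.14.6. Scripts ran in R 4.3.3 and in Python 3.11.15 (scipy 1.17.1, numpy 2.4.6, pandas 2.3.3). The steps were tested on simulated data.

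With 1 group, no design contrast exists. Named genes were all 52 members, the 5 highest of 60 further genes and those of 2-fold span, 1 of which is not reported here. Members, lists, rules and alternatives were chosen with earlier results of these data known, and the count of library orders by role and *Gdf1*, *Tdgf1*, *Cer1* and *Tll2* were chosen after values were seen. Alternatives were other scalings, filters, prior counts, lengths, the length trend and leaving out each library.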

Additional observations from a re-analysis of the deposited data

How the results depend on the processing

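Alternatives gave 103 values for 18 results, of which 22 moved by more than 1 SD or, for counts, 1.5 times, and 81 did not. Of 312 alternative values for single genes, 2 moved by more than their SD, *Gdf11* and *Nog* without replicate 1. Leaving out 1 of 3 libraries shifts a mean by less than its SD by arithmetic, unless the scaling factors change too. For shares and single genes, the values without 1 library are therefore no check of robustness. No paired analysis was possible because all libraries belong to 1 group.
With the length of the longest transcript the share of *Tgfb2* was 14.6%, of *Smad1* and *Smad5* 54.3% and of *Id3* 49.0%, and the median level was 11.9 CPM per kb for Smads, 0.961 for antagonists, 111 for Id genes and 2.83 for Ltbp genes. Without division by length the shares were 43.2% for *Bmp4*, 23.8% for *Tgfb2*, 53.2% for *Smad1* and *Smad5* and 45.9% for *Id3*. These alternatives differ by construction in the length each gene is divided by. The longest transcript also ended the overlap of *Id3* with *Id1*, *Tgfb1* with *Tgfb3*, *Acvr1* with *Bmpr1b*, *Bmpr2* with *Tgfbr2* and *Twsg1* with *Bambi*, made *Ltbp4* overlap *Ltbp3* and *Grem1* overlap *Lefty1*, and turned *Smad2* from above *Smad1* in 3 of 3 libraries to 0 of 3. These pairs, and *Tgfb2* by library totals, were compared after seeing the data. Leaving out 1 library at a time, genes spanning 2-fold numbered 3 to 15, those beyond counting noise 34 of 45 without replicate 1, 41 of 47 without replicate 2 and 31 of 45 without replicate 3 (71.2%, 77.7% and 48.9% of all genes) and those at 1 CPM or more 37 to 39. The share of *Bmp4* ran from 55.9% to 58.1%, of *Bmpr1a* from 68.1% to 72.4%, of *Tgfb2* from 17.4% to 20.3%, of *Smad1* and *Smad5* from 49.7% to 51.6%, of *Id3* from 41.9% to 42.6% and of *Ltbp1* from 23.0% to 37.8%. Medians ran from 0.320 to 0.597 CPM per kb for ligands, 2.96 to 4.89 for receptors, 9.48 to 11.0 for Smads, 0.556 to 0.682 for antagonists, 103 to 105 for Id genes and 1.60 to 1.91 for Ltbp genes. Library totals without scaling moved the median log2 CPM of all genes by 0.08 in replicate 1 and -0.10 in replicate 3, and 21 of 46 genes then spanned 2-fold, against 34.9% of all genes. The 10 receptors highest in replicate 1 and lowest in replicate 3 became 6 with the length trend removed, and the 2 inhibitory Smads of the opposite order became 1 with that trend removed and 0 with library totals. These were alternatives added after seeing the data. For low ligands and antagonists, depth limits every fold.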
